A study of Mus musculus with 4 samples.

Results

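Synaptotagmins, SNAREs and the proteins that dock, prime and store synaptic vesicles were examined in sorted cells of the *Prdm13* lineage of the embryonic mouse neural tube. The members were the genes whose symbols belong to the synaptotagmin (*Syt*), synaptotagmin-like (*Sytl*), syntaxin (*Stx*), syntaxin binding protein (*Stxbp*), VAMP, SNAP, synapsin (*Syn*), complexin (*Cplx*), *Sv2*, RIM (*Rims*) and *Rab3* families, together with *Syp*. By this rule on names, 74 of the 24421 genes in the deposited table were members. The families were chosen with earlier results of these data known. GFP+ cells had been sorted from E11.5 neural tubes of heterozygous *Prdm13GFP/+* embryos and of homozygous *Prdm13GFP/GFP* mutants, all of mixed ICR and C57Bl/6 stock. The GFP allele carries GFP and a stop codon in the first exon of *Prdm13*, so each sorted cell of either genotype has at least 1 disrupted copy and no wild-type cells were compared. Each genotype was represented by 1 RNA pool, of 7 embryos for *Prdm13GFP/+* and of 9 for *Prdm13GFP/GFP*, from which 2 libraries were sequenced. The libraries of a genotype are therefore technical replicates, and p-values and standard deviations (SD) hold no variation between embryos.

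Neurotransmitter leaves a neuron when a vesicle fuses with the plasma membrane. VAMP on the vesicle (an R-SNARE) zips together with syntaxin and SNAP25 on the plasma membrane (Q-SNAREs), Munc18 proteins (encoded by *Stxbp* genes) hold syntaxin ready, complexin clamps the complex, and synaptotagmins such as SYT1 sense the calcium that triggers fusion. RAB3 and RIM tether vesicles at the active zone, whereas synapsins, SV2 and synaptophysin belong to the vesicle itself. Related SNAREs serve fusion between the inner membranes of every cell. At E11.5 most neurons of the dorsal neural tube have been born only recently and form few synapses.

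Levels are given as RPKM, reads divided by exon length and by the size of the library, which can be compared between genes. Whole reads were recovered from the RPKM values and summed to between 11764824 and 18721795 per library. A gene was tested when its mean RPKM was at least 1 in either genotype, and it was called when limma on log2(RPKM + 0.1) gave an adjusted p under 0.05 (Benjamini-Hochberg over all 12046 genes tested, two-sided) and a fold of at least 1.5, which is 0.585 on the log2 scale. Fold changes on this scale understate those of low genes. *Prdm13* itself was at 114 and 127 RPKM in *Prdm13GFP/+* and at 309.5 and 324 RPKM in *Prdm13GFP/GFP*, but transcripts of the GFP allele are counted with it, and the level therefore gives no check of the labels. Markers listed for the sorted population were present in all libraries. The summed level of 11 pan-neuronal genes was 1970.3 to 2031 RPKM in *Prdm13GFP/+* and 2519 to 2631 RPKM in *Prdm13GFP/GFP*. Much of this sum was *Tubb3*, at 1017 and 1062 RPKM in *Prdm13GFP/+* and 1265 and 1372 RPKM in *Prdm13GFP/GFP*. Of the 11 genes, 7 had log2 fold changes above 0 and 4 (*Map2*, *Ina*, *Dcx* and *Rbfox3*) below. Called higher were 4 (*Stmn2*, *Nefl*, *Nefm* and *Gap43*), and 0 were called lower. All 8 dorsal inhibitory markers were called lower, from a summed 523 to 561 RPKM to 99.5 to 106 RPKM, and all 7 dorsal excitatory markers higher, from 30.4 to 33.3 RPKM to 195 to 201 RPKM. The paper names all of these inhibitory markers, all the excitatory ones but *Prrxl1*, and *Nefm* among genes changed in the same libraries. Their directions were thus known beforehand and are no independent finding. In bulk RNA of this kind, fewer cells of a type and less RNA per cell cannot be told apart, and this holds for each result that follows.

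Of the 74 members, 58 were tested and 16 had a mean RPKM under 1 in both genotypes. Passing in *Prdm13GFP/GFP* alone were 2 members (*Syt16* and *Syn2*), and in *Prdm13GFP/+* alone another 2 (*Syt3* and *Rims1*). The limma test called 7 members, 12.1% of those tested, beside 6.33% of all genes tested. Higher in *Prdm13GFP/GFP* were *Syt13*, *Syt4*, *Syt5* and *Stxbp3* (6.9% of the tested members, beside 3.65% of all genes). Lower were *Sv2c*, *Snap25* and *Stxbp5* (5.17%, beside 2.67%). The members went both ways, 35 up and 23 down, and their median log2 fold change was 0.02, beside 0.01 over all genes tested. An adjusted p under 0.05 at any fold was reached by 12 members (20.7%, beside 19.7% of all genes). No test of the list as a whole was made.

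**Figure D1:**
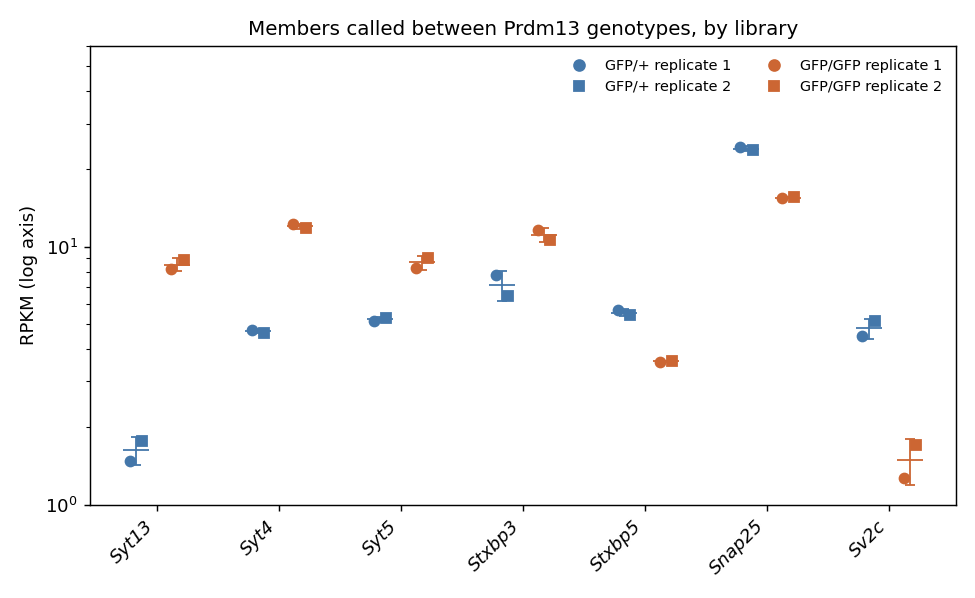
RPKM on a log axis of the 7 called members in each library, with circles for replicate 1, squares for replicate 2, horizontal bars for the mean of a genotype and whiskers for the SD (n = 2 libraries of 1 RNA pool). *Syt13*, *Syt4*, *Syt5* and *Stxbp3* lie higher in both *Prdm13GFP/GFP* libraries, and *Stxbp5*, *Snap25* and *Sv2c* lie lower in both.

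*Syt13* (gene ID 80976, on GRCm38 chromosome 2 from 92915101 to 92956051) had the largest change of any tested member. It encodes a synaptotagmin that lacks the residues for binding calcium. Its level was 1.47 and 1.76 RPKM in the *Prdm13GFP/+* libraries and 8.17 and 8.87 RPKM in the *Prdm13GFP/GFP* libraries, from 64, 121, 498 and 455 reads. Both mutant libraries lay far above both heterozygous ones. The mean RPKM was 5.27-fold higher, and limma gave 2.33 for the log2 fold change (standard error, SE, 0.116, adjusted p = 6.16e-05). The paper already lists *Syt13* among genes higher in the mutant in the same libraries, so this rise is no independent finding.

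*Syt4* (gene ID 20983, chromosome 18 from 31437808 to 31447415) encodes a synaptotagmin of dense core vesicles with weak calcium binding. It measured 4.76 and 4.63 RPKM in *Prdm13GFP/+* against 12.2 and 11.8 RPKM in *Prdm13GFP/GFP*. The libraries of each genotype nearly coincided and the genotypes did not overlap. The log2 fold change was 1.33 (SE 0.0666, adjusted p = 6.21e-05), or 2.55-fold in mean RPKM. A noncoding antisense gene (*Gm26658*) overlaps exons of *Syt4* in the GENCODE annotation, and whether the counting used strand is not given in the sources used here.

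*Syt5* (gene ID 53420, chromosome 7 from 4539765 to 4547541), which encodes a calcium-binding relative of SYT1, was at 5.14 and 5.3 RPKM in the heterozygous libraries and at 8.29 and 9.07 RPKM in the mutant ones. The genotypes did not overlap. It was 1.66-fold higher, a log2 fold change of 0.72 (SE 0.0767, adjusted p = 0.00168).

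These shifts changed the order of the synaptotagmins. In *Prdm13GFP/+*, *Syt11* led with 91.4 ± 0.555 RPKM (SD, n = 2, the libraries of a genotype, here and below), 68.4 to 68.8% of the summed RPKM of the 17 *Syt* genes. It was followed by *Syt1* at 10.5 ± 0.0208, *Syt5* at 5.22 ± 0.118, *Syt14* at 5.15 ± 0.0721 and *Syt4* at 4.7 ± 0.0931 RPKM. *Syt5* and *Syt14* overlapped there and have no settled order, and *Syt13* came after *Syt2* and *Syt9* with libraries overlapping theirs. In *Prdm13GFP/GFP*, *Syt11* was again first with 94 ± 0.734 RPKM, and *Syt4* was second with 12 ± 0.282 RPKM. *Syt1* (8.84 ± 0.127), *Syt5* (8.68 ± 0.545) and *Syt13* (8.52 ± 0.497 RPKM) followed with libraries that overlapped. The sum over all *Syt* genes was 132 and 134 RPKM in *Prdm13GFP/+* and 152 and 154 RPKM in *Prdm13GFP/GFP*.

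The main calcium sensor of fast release, *Syt1*, was at 10.5 and 10.6 RPKM in *Prdm13GFP/+* and at 8.75 and 8.93 RPKM in *Prdm13GFP/GFP*. Both mutant libraries were lower, but the difference was short of 1.5-fold, with a log2 fold change of -0.25 (95% interval -0.39 to -0.11, adjusted p = 0.0317). *Syt2*, the other fast sensor, went the opposite way, from 1.84 and 1.52 to 2.14 and 2.66 RPKM, and did not pass the test (log2 fold change 0.49, adjusted p = 0.095). *Syt3*, which encodes a calcium sensor of the plasma membrane, passed the fold but not the adjusted p. It had 1.14 and 1.11 RPKM in *Prdm13GFP/+* and 0.492 and 0.79 RPKM in *Prdm13GFP/GFP*, from 33, 51, 20 and 27 reads (log2 fold change -0.76, adjusted p = 0.129). On recovered reads with limma voom, *Syt3* was called lower (log2 fold change -0.86, adjusted p = 0.0206). Its log2 fold change was -0.46, short of the fold, without the first mutant library, -1.05 without the second, and -0.38 with a pseudocount of 1, none of them called. *Syt7*, a slower high-affinity sensor, was at 3.22 ± 0.0845 and 3.49 ± 0.0968 RPKM (adjusted p = 0.461). For *Syt11*, the interval of the log2 fold change ran from -0.06 to 0.14. The synaptotagmin-like genes, whose products bind RAB27 on secretory granules, summed to 0.932 to 1.05 RPKM per library over all 5 genes, and 0 of them reached the level for testing.

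**Figure D2:**
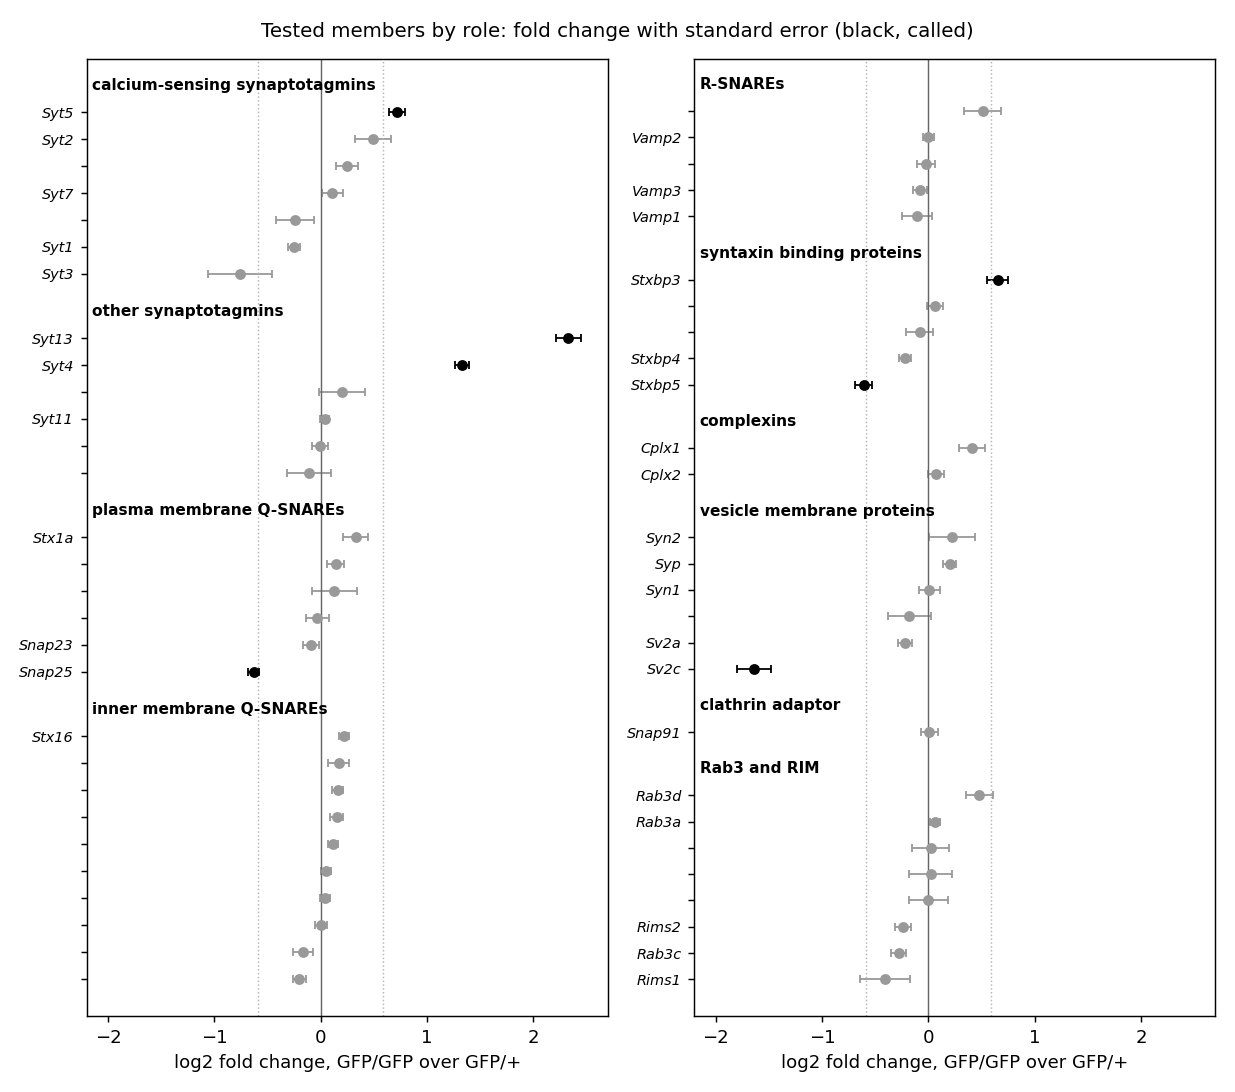
Log2 fold change of *Prdm13GFP/GFP* over *Prdm13GFP/+* for 56 tested members, grouped by role, with whiskers for the standard error, dotted lines at a fold of 1.5 and black points for called genes. Members not treated singly are unlabelled points, as are some others such as *Vamp8* and *Stx12*. Most points lie close to 0, and the called genes are *Syt13*, *Syt4*, *Syt5*, *Stxbp3*, *Stxbp5*, *Snap25* and *Sv2c*.

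Among the Q-SNAREs of the plasma membrane, *Snap25* (gene ID 20614, chromosome 2 from 136713439 to 136782428) was the only member of 7 tested that was called. SNAP25 gives the neuronal SNARE complex its pair of central helices. Its RNA was at 24.4 and 23.7 RPKM in *Prdm13GFP/+* and at 15.4 and 15.6 RPKM in *Prdm13GFP/GFP*, from 631, 971, 561 and 477 reads. The libraries of each genotype lay close together, with a wide gap between genotypes. The mean was 1.55-fold lower (log2 fold change -0.63, SE 0.0526, adjusted p = 0.00061).

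Its ubiquitous relative *Snap23* was at 16.6 and 14.5 RPKM against 14.9 and 14.2 RPKM, with overlapping libraries (log2 fold change -0.09, 95% interval -0.28 to 0.09, adjusted p = 0.443). *Snap25* thus went from 59.5 to 62% of the summed RPKM of both genes in the heterozygous libraries to 50.8 to 52.4% in the mutant ones. *Stx1a*, which encodes a neuronal syntaxin, was not called. It was at 9.76 and 9.49 RPKM and then at 10.7 and 13.8 RPKM, with one mutant library well above the other (log2 fold change 0.33, adjusted p = 0.096).

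The R-SNARE partner of SNAP25 on synaptic vesicles, *Vamp2*, was at 40.4 and 42.9 RPKM in *Prdm13GFP/+* and at 41.9 and 41.5 RPKM in *Prdm13GFP/GFP*. The mutant libraries lay between the heterozygous ones. The interval of its log2 fold change ran from -0.12 to 0.13. *Vamp1*, a second neuronal form, was at 1.99 ± 0.0999 and 1.84 ± 0.0892 RPKM, and *Vamp3*, the form of other cells, at 26.2 ± 2.04 and 24.7 ± 0.805 RPKM (adjusted p = 0.63 and 0.441). *Vamp8*, which serves fusion of late endosomes, was at 1.32 and 1.74 RPKM against 2.27 and 2.14 RPKM on 12 to 29 reads a library, and was not called (log2 fold change 0.51, adjusted p = 0.0898). *Vamp7* was listed at 0 in all 4 libraries.

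The SNAREs of inner membranes were all measured above the level for testing, and 0 of 10 were called, by limma or by any alternative that was run. At an unadjusted p under 0.05 there were 4, beside 4109 of all 12046 genes tested. Limma called 6.33% of the 12046. Over the 10 SNAREs, log2 fold changes ran from -0.20 for *Stx18*, of the endoplasmic reticulum, to 0.22 for *Stx16* of the trans-Golgi. *Stx16* was at 27 and 26.8 RPKM against 32 and 30.8 RPKM (adjusted p = 0.0268, short of 1.5-fold). The endosomal *Stx12* was the highest of them at 44.6 ± 0.791 and 46 ± 1.27 RPKM.

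Syntaxin binding proteins went both ways. *Stxbp3* (gene ID 20912, chromosome 3 from 108793180 to 108840502) encodes MUNC18C, the partner of syntaxin 4 in cells that are not neurons. It was at 7.76 and 6.42 RPKM in *Prdm13GFP/+* and at 11.6 and 10.6 RPKM in *Prdm13GFP/GFP*. The mutant libraries were both higher, and the heterozygous ones differed from each other by more than the mutant ones did. The log2 fold change was 0.65 (SE 0.102, adjusted p = 0.00759). Leaving out 1 library ended the call in 3 of 4 cases, to adjusted p = 0.0507 without the second heterozygous, 0.0732 without the first mutant and 0.0705 without the second mutant library.

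*Stxbp5* (gene ID 78808, chromosome 10 from 9755547 to 9901287) encodes tomosyn, which occupies syntaxin and SNAP25 and so holds back fusion. It was at 5.67 and 5.43 RPKM against 3.57 and 3.6 RPKM. Both mutant libraries were lower and nearly coincided. The log2 fold change of -0.61 (SE 0.0826, adjusted p = 0.0043) was close to the threshold, and the call was lost without the first heterozygous library (-0.58), with a pseudocount of 1 (-0.51) and without the second mutant library (adjusted p = 0.055). *Stxbp4*, which encodes another partner of syntaxin 4, was at 11.7 ± 0.164 and 10 ± 0.0284 RPKM, below the fold for a call (adjusted p = 0.0419).

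*Sv2c* (gene ID 75209, chromosome 13 from 95959443 to 96132577) fell most of the tested members. SV2 proteins are glycoproteins of the synaptic vesicle membrane, and SV2C is the form with the most restricted expression in the brain. Its level was 4.51 and 5.13 RPKM in *Prdm13GFP/+* and 1.27 and 1.7 RPKM in *Prdm13GFP/GFP*, from 444, 800, 176 and 198 reads. Both mutant libraries were far below both heterozygous ones, and the 2 differed between themselves. The mean was 3.24-fold lower (log2 fold change -1.64, SE 0.161, adjusted p = 0.00125).

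*Sv2a*, the widespread form, was at 12.2 and 13.1 RPKM against 11 and 10.7 RPKM (log2 fold change -0.22, adjusted p = 0.0531). *Sv2b* stayed under 1 RPKM throughout. *Sv2c* made up 26 to 27.3% of the summed *Sv2* RPKM in the heterozygous libraries and 9.95 to 13.3% in the mutant ones. The other vesicle proteins were not called. *Syp*, for synaptophysin, was at 20.6 and 20.4 RPKM against 24.6 and 22.7 RPKM (log2 fold change 0.20, adjusted p = 0.057), and *Syn1*, for synapsin I, at 7.96 and 8.48 RPKM against 7.56 and 9.1 RPKM with overlapping libraries. *Syn2* was near 1 RPKM in both genotypes, at 0.951 ± 0.0478 and 1.13 ± 0.0382 RPKM. *Snap91*, whose product AP180 recovers vesicles through clathrin, was at 12.6 ± 0.988 and 12.7 ± 0.708 RPKM. Exons of *Syp*, *Syn1*, *Syn2*, *Rab3a* and *Syt7* overlap genes on the other strand (*Gm14703*, *Araf*, *Timp4*, *Mpv17l2* and *Gm26859*).

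Complexins, RAB3 and RIM gave 0 calls among 10 tested genes, by limma or by any alternative that was run. An unadjusted p under 0.05 was reached by 4, beside 4109 of all 12046 genes tested. Limma called 6.33% of the 12046. *Cplx1* was at 3.9 and 4.98 RPKM against 5.81 and 5.97 RPKM (log2 fold change 0.41, adjusted p = 0.061), and the first heterozygous library was lowest. *Cplx2* was at 9.69 ± 0.832 and 10.1 ± 0.21 RPKM. *Rab3a*, the main RAB of synaptic vesicles, was at 38.5 and 39.2 RPKM against 40.5 and 40.7 RPKM, with an interval of the log2 fold change from -0.05 to 0.18. *Rab3d*, known from secretory granules of exocrine cells, was at 3.11 ± 0.388 and 4.39 ± 0.499 RPKM (log2 fold change 0.48, adjusted p = 0.0438), and *Rab3c* at 12.9 ± 0.55 and 10.7 ± 0.789 RPKM (log2 fold change -0.28, adjusted p = 0.0449). Both were short of 1.5-fold. *Rims1* was at 1.23 and 1.05 RPKM against 0.847 and 0.809 RPKM (adjusted p = 0.263) and *Rims2* at 8.01 and 8.1 RPKM against 7.1 and 6.51 RPKM (adjusted p = 0.064), with the mutant libraries lower in both genes.

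**Figure D3:**
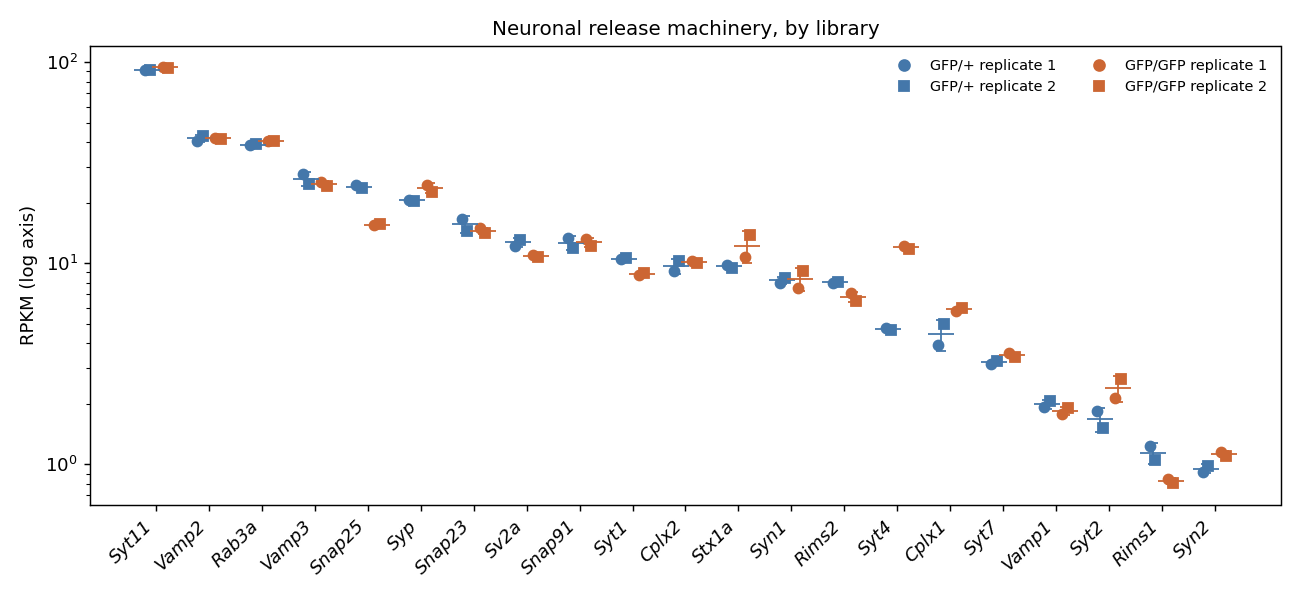
RPKM on a log axis of 21 genes of the neuronal release machinery in each library, ordered by their mean in *Prdm13GFP/+*, with horizontal bars for the mean and whiskers for the SD (n = 2 libraries of 1 RNA pool). The levels span from 0.809 RPKM for *Rims1* to 94.5 RPKM for *Syt11*, and the genotypes lie clearly apart at *Snap25* and *Syt4*.

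The libraries of the genotypes did not overlap in 41 of the 58 tested members (70.7%), 26 of them with *Prdm13GFP/GFP* above and 15 below. Over all genes tested this share was 62.1%, with 31.7% above and 30.3% below. In size, the median absolute log2 fold change was 0.165 over the members and 0.125 over all genes, and 42 members stayed within 0.25 of 0 on the log2 scale.

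Of the 16 members not tested, *Cplx4*, *Syt8* and *Vamp7* were listed at 0 in every library. The rest, among them *Syt10*, *Syt12*, *Syt15*, *Sv2b* and *Cplx3*, had mean levels of up to 0.573 RPKM. *Sytl1* was at 0.18 and 0.198 RPKM against 0.415 and 0.38 RPKM, on 4, 7, 13 and 10 reads, and *Sytl5* at 0.209 and 0.115 RPKM against 0.0464 and 0.0442 RPKM, on 16, 14, 5 and 4 reads. At such depth no change can be read from them.

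Promoter sequence was available in the RefSeq table (GRCm38.p6) for 57 of the 74 members and for 3 of the 7 called ones. These are shown because bHLH factors of the dorsal neural tube, such as PTF1A, bind E-boxes, the motif CANNTG. Each line gives the 250 bases before an annotated start of transcription, 5′ to 3′ on the strand of the gene, with E-boxes in capitals.
*Stxbp3*, chr3:108840503-108840752, minus strand: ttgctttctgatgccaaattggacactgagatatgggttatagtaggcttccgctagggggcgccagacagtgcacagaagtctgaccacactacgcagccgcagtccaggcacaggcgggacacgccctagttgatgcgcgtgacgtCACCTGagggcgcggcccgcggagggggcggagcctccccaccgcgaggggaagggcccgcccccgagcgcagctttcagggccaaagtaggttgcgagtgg
*Stxbp5*, chr10:9901041-9901290, minus strand: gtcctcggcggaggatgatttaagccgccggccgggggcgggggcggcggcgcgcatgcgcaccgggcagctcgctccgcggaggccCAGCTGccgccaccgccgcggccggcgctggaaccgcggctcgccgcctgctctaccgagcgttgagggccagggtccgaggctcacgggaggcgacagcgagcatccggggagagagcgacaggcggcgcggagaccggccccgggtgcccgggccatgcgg
*Sv2c*, chr13:96132578-96132827, minus strand: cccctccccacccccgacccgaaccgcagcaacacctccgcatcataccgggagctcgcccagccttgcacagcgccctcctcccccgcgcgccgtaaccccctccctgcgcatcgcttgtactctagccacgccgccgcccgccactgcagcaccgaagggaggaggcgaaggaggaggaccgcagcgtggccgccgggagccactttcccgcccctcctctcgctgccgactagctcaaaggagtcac
The *Stxbp3* window holds 1 E-box of the form CACCTG, that of *Stxbp5* 1 of the form CAGCTG, and that of *Sv2c* 0. The *Stxbp5* window precedes a start that lies within the gene, so nearly all of it falls inside the gene's span given above, whereas the other windows lie just outside theirs. CANNTG reads the same on both strands and was found in 69.9% of the 73 promoter windows of members, beside 66.2% of all 32851 windows in the table. CAGCTG, which is 1 kind of CANNTG, stood in 26% of the windows of members and in 13% of all windows. CAGATG or its reverse complement CATCTG, another kind, stood in 8.22% and 14.4%. All windows include those of genes not tested here. Between tested members and all genes tested, the shares were 67.9% and 56.2% for CANNTG, 28.6% and 11.7% for CAGCTG, and 7.14% and 9.64% for CAGATG. The 16 members with CAGCTG included *Stxbp5*, *Syt1*, *Stx1a*, *Cplx1*, *Rab3a* and *Sv2a*. Some genes have several overlapping windows, and a match is only a match of letters.

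Beyond the named families, 47 other genes of vesicle release were listed, for active zone scaffolds, priming factors, disassembly of SNARE complexes, vesicle proteins, endocytosis and synucleins. Of these, 40 were tested, 2 called higher and 3 lower, and 35 not called, with a median log2 fold change of -0.04. Over all 12046 genes tested, 3.65% were called higher and 2.67% lower, and the median was 0.01. A further 4 of the 35 (*Napa*, *Unc13b*, *Sgip1* and *Cadps*) passed the adjusted p but not the fold, beside 1613 of all 12046 genes tested. *Rph3a*, whose product rabphilin binds RAB3 on vesicles, was at 3.15 and 3.65 RPKM in *Prdm13GFP/+* and at 0.873 and 0.926 RPKM in *Prdm13GFP/GFP* (log2 fold change -1.80, adjusted p = 0.000687). *Dnm3*, which encodes a dynamin of endocytosis, was at 2.78 and 3.08 RPKM against 1.14 and 1.1 RPKM (log2 fold change -1.31, adjusted p = 0.00203). At both genes the mutant libraries lay far below. *Cadps2* passed the fold but not the adjusted p, at 1 and 1.01 RPKM against 0.387 and 0.496 RPKM (log2 fold change -1.04, adjusted p = 0.0611).

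*Rimbp2*, for a protein that links RIM to calcium channels, was at 1.72 and 1.33 RPKM against 0.88 and 0.72 RPKM (log2 fold change -0.85, adjusted p = 0.0496). That call was lost without any 1 of the 4 libraries, with a pseudocount of 1 (-0.49) and after quantile normalization (adjusted p = 0.0515). The synuclein gene *Sncg* rose from 11 and 11.1 RPKM to 35 and 34.5 RPKM (log2 fold change 1.64, adjusted p = 1.06e-05), whereas *Sncb* was at 2.67 and 1.78 RPKM against 1.8 and 2.45 RPKM. The rise of *Sncg* in the same libraries is already listed in the paper. *Syngr3*, a synaptogyrin of synaptic vesicles, was at 1.98 and 2.37 RPKM against 3.64 and 3.06 RPKM (log2 fold change 0.60, adjusted p = 0.0318). The call of *Syngr3* was lost without any 1 of the 4 libraries. *Unc13b*, a priming factor, and *Napa*, which disassembles SNARE complexes, had log2 fold changes of 0.37 (adjusted p = 0.00725) and 0.31 (adjusted p = 0.0196), short of 1.5-fold.

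Genes of dense core granules were a further list of 14, of which 11 were tested. Limma called 0 of them, beside 6.33% of all genes tested, and limma voom on recovered reads called 0 as well. An unadjusted p under 0.05 in limma was reached by 5 of the 11, beside 4109 of all 12046 genes tested. Closest was *Ptprn*, a membrane protein of granules, at 10.7 and 10.4 RPKM against 14.4 and 15.9 RPKM (log2 fold change 0.52, adjusted p = 0.00431), which was called without the first mutant library (0.59). *Pam*, which amidates neuropeptides, was at 11.7 and 11.1 RPKM against 8.12 and 9.03 RPKM (log2 fold change -0.41, adjusted p = 0.013). The chromogranins *Chga* and *Chgb* had log2 fold changes of 0.20 and 0.15, and neither passed the adjusted p.

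**Figure D4:**
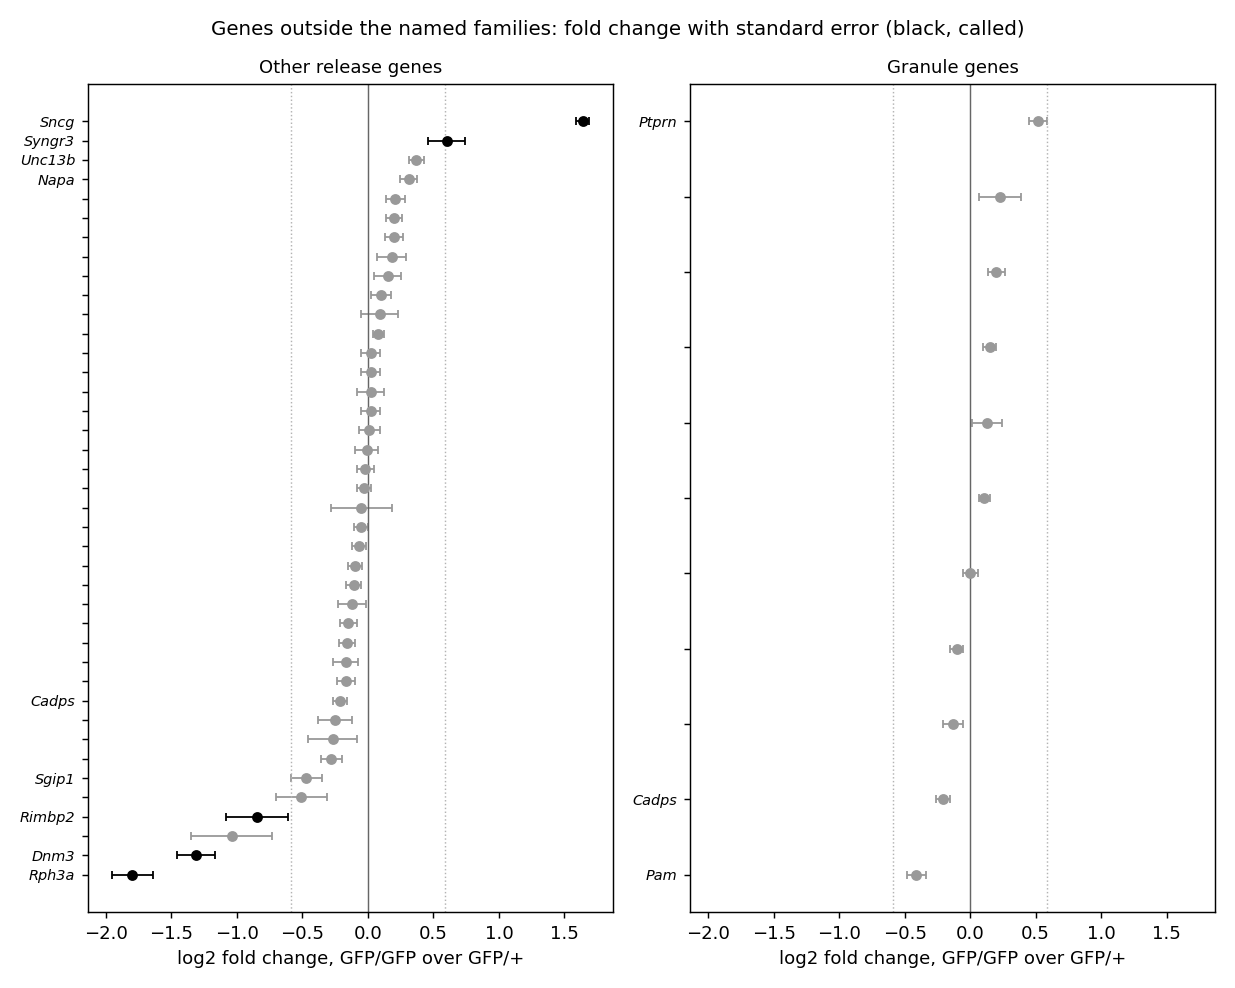
Log2 fold change of *Prdm13GFP/GFP* over *Prdm13GFP/+* for tested genes of vesicle release outside the named families (left) and of dense core granules (right), with whiskers for the standard error, dotted lines at a fold of 1.5, black points for called genes and names for genes with an adjusted p under 0.05. *Sncg* rises most, and *Rph3a* and *Dnm3* fall most.

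Markers of other cell types that a sort could hold were read beside these changes. Of 4 sympathoadrenal markers only *Th* was tested, and it was called higher. Their summed level was 4.56 to 4.61 RPKM in *Prdm13GFP/+* and 7.57 to 8.16 RPKM in *Prdm13GFP/GFP*, with *Dbh*, *Gata3* and *Hand2* at or under 0.128 RPKM in every library and *Hand2* at 0 in 3 of them. Of 6 markers of dorsal root ganglion neurons 0 were tested, with sums of 1.93 to 2.66 and 1.94 to 2.16 RPKM, *Avil* at up to 0.223 RPKM and *Scn10a* at up to 0.0135 RPKM. Of 4 neural crest and glia markers 2 were tested and 1 (*Foxd3*) was called lower, with a sum of 12.2 to 15.2 RPKM against 6.9 to 7.27 RPKM. None of the 6 motor neuron, 4 endothelial or 4 erythroid markers was tested, and the 3 lists summed to at most 1.75, 1.94 and 0.469 RPKM in a library, with *Hba-a1* and *Hbb-bt* at 0. Of 4 mesenchymal markers 1 was tested and 0 called, with sums of 2.96 to 3.4 and 2.38 to 2.52 RPKM. Of 7 progenitor markers, *Sox1* was called lower and 0 higher, with sums of 1432 to 1476 and 1478 to 1547 RPKM. Most of each sum was *Vim*, at 932 and 932 RPKM against 947 and 986 RPKM. A further 4 passed the adjusted p but not the fold, beside 1613 of all 12046 genes tested. Of these, *Sox2* was lower (log2 fold change -0.48), and *Hes5* (0.42), *Notch1* (0.37) and *Pax6* (0.26) were higher. The part of these cells, and of the shift from inhibitory to excitatory markers, in the changes of the members was not tested.

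Without the filter on RPKM, with all 24421 genes tested, the adjusted p of *Syt4* was 0.0476 and that of the other 6 called members ran from 0.051 to 0.187, with the same fold changes.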

How the data were processed

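RNA-seq was analysed from 4 libraries, 2 of *Prdm13GFP/+* and 2 of *Prdm13GFP/GFP*, grouped by the submitters' labels. The authors aligned reads to mm10 with TopHat2 2.1.0, counted them on RefSeq exons with featureCounts, normalized with TMM in edgeR 3.6.8 (versions from the submitters' processing notes) and deposited RPKM for 24421 genes. The members and lists were chosen with earlier results of these data known.

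The 2 genotypes were compared on log2(RPKM + 0.1) by limma 3.58.1 under R 4.3.3 (lmFit, then eBayes with trend), two-sided, for genes whose mean RPKM reached 1 in 1 genotype or both, with Benjamini-Hochberg adjustment over all 12046 genes tested. The libraries of a genotype share 1 RNA pool, and an exact permutation test of 2 against 2 cannot go below 0.333. Called genes passed an adjusted p of 0.05 and a fold of 1.5. Fits were tested on simulated data.

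RPKM is reads times a step set by exon length and library size. Solving for both gave whole reads for 19198 of the 19200 genes above 0. Reads could be off by a common factor where a solved length is a multiple of the true one, and the solved and annotated lengths differed by less than 5% for 69.6%. They cover counting error only.

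Named were every called member, members past the fold but not called, 21 genes of the neuronal release machinery, and called genes of the other lists. Some genes are not reported here and were left out of the marker and release lists and their sums, but they stay in the counts over all members. Other named genes were chosen after their values were seen. Tables and plots used Python 3.11.15, numpy 2.4.6, pandas 2.3.3 and matplotlib 3.10.9. Coordinates and promoters are of RefSeq on GRCm38. The alternatives were other pseudocounts and filters, scaling, the variance trend, limma voom on recovered reads, the replicate block, and leaving out each library.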

Additional observations from a re-analysis of the deposited data

How the results depend on the processing

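The 13 alternatives were set with earlier results known. With all genes tested and no filter on RPKM, 1 member was called higher and 0 lower, by limma, and 44 genes in all. Other release genes gave 1 higher and 0 lower there, and the median log2 fold change of the members was 0.008. A pseudocount of 1, quantile normalization and a fit with no trend each called 1 other release gene higher, beside 2. Those called lower, 3, were 2 with a pseudocount of 1 and after quantile normalization, and 4 with no trend, with voom and with the filter on both libraries. Limma voom on recovered reads gave a median of 0.044 for the members, and it called *Syt3* lower. With 1 library left out, members called higher ran from 3 to 4 and members called lower from 2 to 3, other release genes were 1 higher and 2 lower each time, beside 2 and 3, granule genes called higher ran from 0 to 1, and the members' median ran from 0.042 to 0.056, above its value of 0.018 with all libraries. Direction turned for *Vamp2* after median ratio scaling (-0.002), after quantile normalization (-0.032) and with voom (-0.003), for *Syt11* after quantile normalization (-0.015) and for *Syn1* with voom (-0.003). With 1 library left out, values crossed 0 for *Vamp2* (-0.041 to 0.04), *Cplx2* (-0.018 to 0.16), *Snap23* (-0.19 to 0.003), *Snap91* (-0.068 to 0.09) and *Syn1* (-0.118 to 0.15). None of these 6 genes was called under any alternative. Of the 32 genes followed singly, 15 kept direction and call throughout. The cause of these shifts was not tested.

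The labels number the replicates 1 and 2 in each genotype, but they share only a number. The differences between replicates correlated at 0.0475 between genotypes over the genes tested. With the replicate block, 4 members were called higher and 3 lower, the same counts as without it, and 801 genes in all, beside 762.

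Depth limits low members: tested members had 12 to 7683 reads a library.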

Other observations

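Between the libraries of a genotype, the median absolute log2 difference of the members was 0.0861 in *Prdm13GFP/+* and 0.0806 in *Prdm13GFP/GFP*, near the 0.0783 and 0.0776 of all genes tested. Some members differed far more, and in the same sense in both genotypes. *Rims3*, which encodes a small RIM of the active zone, was at 4.07 and 5.36 RPKM in *Prdm13GFP/+* and at 4.09 and 5.46 RPKM in *Prdm13GFP/GFP*, replicate 1 before replicate 2. *Syt17*, which encodes a synaptotagmin without a transmembrane segment, was at 2.35 and 3.27 RPKM and at 2.17 and 3.03 RPKM. *Rab3b* went the other way, with 2.5 and 1.97 RPKM and 2.56 and 1.94 RPKM. None of the 3 was called between genotypes, and their libraries overlapped. They were chosen after their values were seen.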
